A study of Rattus norvegicus with 458 samples.

Results

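The let-7 and miR-98 family is a group of short regulatory RNAs, microRNAs (miRNAs), that share the same seed, the bases near the 5′ end by which a miRNA pairs with its targets. The family was investigated in a body atlas of the rat, in which small RNA of 23 tissues was sequenced. Its members were taken by name from the table of counts per miRNA name, as every name with a part that starts with let-7 and ends in -5p, or that is miR-98-5p, without precursor names. The rule found 61 of 7534 names, of which 10 were single names and 51 were composites, the names given to sequences that fit several miRNAs. The 10 single names were the 8 that had been listed for the family, let-7a-5p, let-7b-5p, let-7c-5p, let-7d-5p, let-7e-5p, let-7f-5p, let-7i-5p and miR-98-5p, and also let-7g-5p and let-7-5p. The latter is a name of another species that held 59 counts in all, so the results below concern the other 9. The 9 members are written without their ending from here on.

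Mature let-7 is cut from a hairpin precursor and loaded into an Argonaute protein, where it represses messenger RNAs with sites for its seed. The family is known for its rise as cells leave the stem or progenitor state, for the repression of growth genes, and for the control of its precursors by the LIN28 proteins, which bind the hairpin and lead to the addition of U to its end. Several members are transcribed together with each other or with miRNAs of the miR-99/100 and miR-125 families.

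The rats were naive Sprague Dawley rats of 12 to 13 weeks, 5 males and 5 females, and no group received a treatment or carried an altered allele. The 19 tissues found in both sexes were each sampled from 10 rats, namely adrenal, biceps femoris, brainstem, cerebellum, cerebrum, duodenum, glandular stomach, heart, hippocampus, ileum, jejunum, kidney, kidney cortex, kidney medulla, liver, non-glandular stomach, pancreas, soleus and whole blood. Testis came from 5 males, and ovary and uterus from 5 females each. The dorsal root ganglion was represented by 10 technical libraries of 2 RNA pools, 1 for each sex, so that its spread is that of 2 pools. The study states that its RNA was provided by Takeda Pharmaceuticals, and it has no RNA integrity numbers. For the ganglion, tissue and source of the RNA thus cannot be told apart. The tissues were homogenised whole, and in such bulk RNA fewer cells of a type and less RNA per cell cannot be told apart.

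Library totals ranged from 376401 to 17725805 counts (median 4816409), and the family accounted for 7967 to 593774 counts of a library. The testis had the lowest totals, 376401 to 653651. Of the 25 marker miRNAs listed for the check of the labels, 22 were found as single names. The liver marker miR-122-5p, the heart marker miR-208a-3p and the pancreas marker miR-216a-5p were highest in the tissues they mark. So were the gonad marker miR-202-5p and the erythroid marker miR-451-5p. The leukocyte markers miR-142-5p and miR-223-3p, however, were highest in the liver and the uterus rather than in whole blood. In 10 libraries, however, the profile was closer to another tissue than to the labelled one by more than 0.05 in median correlation. These were 4 duodenum libraries (rats 2, 4, 7 and 11), 3 hippocampus libraries (rats 2, 6 and 7), and 1 library each of adrenal (rat 8), ovary (rat 11) and uterus (rat 8). They were kept under their labels, and for the main results on these tissues and on the brain a value without them is given as well. Reads of 2 flow cell lanes also stood apart, which is described with the isomiRs.

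The mature sequences of the 9 members are shown because the members differ by so few bases that the count of a member rests on single positions. All 9 were found among the RefSeq miRNAs of build GRCr8, each with 22 bases, and the capitals mark the seed, bases 2 to 8.
let-7a: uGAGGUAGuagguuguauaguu
let-7b: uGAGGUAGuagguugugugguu
let-7c: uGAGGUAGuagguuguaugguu
let-7d: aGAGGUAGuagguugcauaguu
let-7e: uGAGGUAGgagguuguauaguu
let-7f: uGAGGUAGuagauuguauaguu
let-7g: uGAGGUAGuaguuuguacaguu
let-7i: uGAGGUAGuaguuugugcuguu
miR-98: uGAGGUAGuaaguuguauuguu

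The 9 sequences had 1 seed in common. Counted from 1 at the 5′ end and written as the base of let-7a, the position and the base of the other member, let-7c differed from let-7a by A19G, let-7e by U9G and let-7f by G12A. The differences were A17G and A19G for let-7b, U1A and U16C for let-7d, G12U and U18C for let-7g, and G11A and A19U for miR-98. With G12U, A17G, U18C and A19U, let-7i was the member farthest from let-7a. Of the 36 pairs of members, 4 differed by 1 base, and the largest number of differences was 6.

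The 9 sequences lay at 12 places of the genome (GRCr8), 11 of them on the plus strand. On chromosome 17, let-7a (chr17:16320145-16320166), let-7f (chr17:16320508-16320529) and let-7d (chr17:16322273-16322294) lay within the interval of 1 long non-coding RNA gene, LOC120097935. The other copy of let-7f (chrX:24460052-24460073) and miR-98 (chrX:24460663-24460684) lay 611 bases apart within the interval of Huwe1, which encodes a ubiquitin ligase. On chromosome 7, let-7c (chr7:118683636-118683657) and let-7b (chr7:118684044-118684065) lay 408 bases apart in no annotated gene interval, and let-7i (chr7:60527935-60527956) lay alone on the minus strand. The other copy of let-7c (chr11:29688127-29688148) lay 44461 bases from miR-125b-5p, and the other copy of let-7a (chr8:50805219-50805240) lay 6912 bases from miR-100-5p. The only copy of let-7e (chr1:67350243-67350264) lay 173 bases from miR-99b-5p and 446 bases from miR-125a-5p. The only copy of let-7g (chr8:115701026-115701047) lay within the annotated intervals of Rpl29 and Wdr82. The position within exons or introns was not analysed here.

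The first question was how much of the miRNA counts of a tissue the family made up. Over all libraries the 10 single names held 29241482 of 1050166585 counts, or 2.78%. The share of the library was highest in the nervous system. It was 7.54% ± 0.431 (SD over 2 pools) in the dorsal root ganglion and 7.19% ± 0.800 (SD, n = 10) in the cerebellum, followed by 5.00% ± 1.16 in the brainstem, 4.70% ± 0.488 in the cerebrum and 4.60% ± 1.74 in the hippocampus (n = 10 each). Without the 3 hippocampus libraries that went against their label the hippocampus had 5.65% ± 0.334 (n = 7). Among the other tissues the pancreas was highest with 4.40% ± 0.533 (n = 10), and its libraries ran from 3.71% through a median of 4.36% to 5.34%. The pancreas RNAs also had the lowest RNA integrity numbers of all tissues that have such values, with a median of 6.2 and a range of 4.9 to 6.8, and the part of this in the value was not tested.

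The lowest shares were found in the digestive tract. The family made up 0.687% ± 0.145 of the library in the non-glandular stomach, 0.783% ± 0.113 in the ileum, 0.890% ± 0.226 in the jejunum and 1.14% ± 0.230 in the glandular stomach (SD, n = 10 each). The duodenum had 2.93% ± 2.21 over its 10 labelled libraries but 1.61% ± 0.151 over the 6 libraries that fit the label. The highest library of the ileum reached 1.01%, below the lowest library of the cerebellum at 5.74%, so these groups did not overlap. Between these ends lay the uterus with 1.37% ± 0.254 (n = 5), the biceps femoris with 1.69% ± 0.293, the kidney medulla with 2.04% ± 0.402, the soleus with 2.10% ± 0.313, the kidney with 2.22% ± 0.437 and the whole blood with 2.25% ± 0.550 (n = 10 each). The testis had 2.44% ± 0.368 (n = 5), the heart 2.54% ± 0.281, the adrenal 2.62% ± 0.449 and the kidney cortex 2.63% ± 0.432 (n = 10 each), and the ovary and the liver followed with 3.02% ± 0.753 (n = 5) and 3.18% ± 0.592 (n = 10). Without the libraries that went against their label the uterus had 1.31% ± 0.251 (n = 4), the adrenal 2.71% ± 0.357 (n = 9) and the ovary 3.33% ± 0.328 (n = 4). Along this order only 4 of 22 neighbouring pairs of tissues differed by more than the larger of their SDs. They were jejunum and glandular stomach, uterus and biceps femoris, liver and pancreas, and brainstem and cerebellum.

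**Figure D1:**
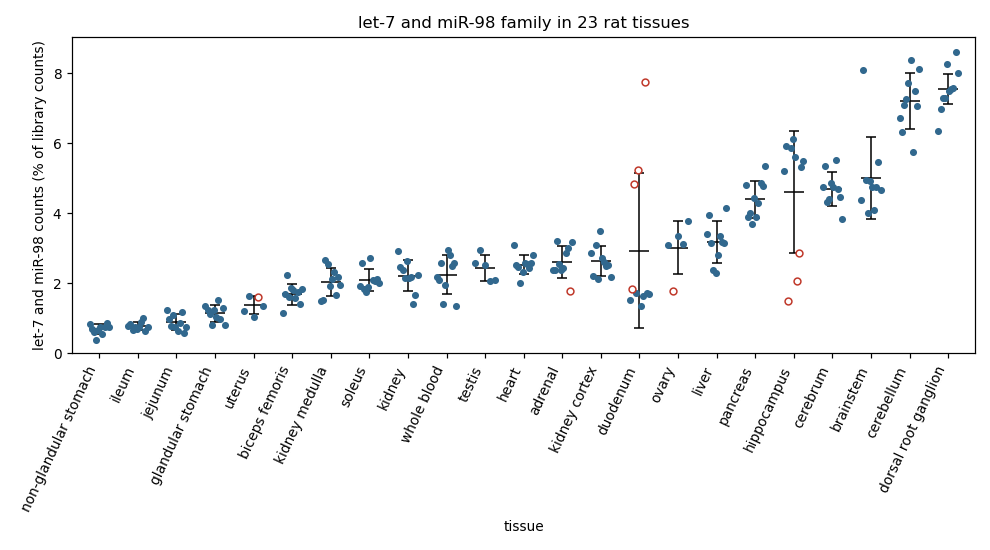
Counts of the 10 single let-7 and miR-98 names as a percentage of all counts of a library (y axis) in 23 tissues ordered by their mean (x axis). Points are libraries, horizontal bars are means over rats (over 2 pools in the dorsal root ganglion), and open red circles are the 10 libraries that went against their label. The cerebellum libraries lay between 5.74% and 8.39%, above every ileum library.

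Such a share depends on what else the library holds, and in several tissues a single name held most of the counts. The erythroid composite miR-3107-5p;miR-486-5p took a median of 85.1% of the whole blood libraries, the smooth muscle marker miR-143-3p took 85.2% of the non-glandular stomach and 74.2% of the glandular stomach libraries, and a composite that holds miR-148a-3p took 60.03% of the pancreas libraries. When the most counted name was left out of each library total, the family made up 15.1% of the remaining counts in whole blood, 10.8% in the pancreas, 9.25% in the cerebellum, 4.32% in the non-glandular stomach, 1.45% in the jejunum and 1.13% in the ileum. By this measure blood rather than the cerebellum held the larger share, and the ileum and the jejunum were again low. The shares of the members within the single names of the family, which follow, do not depend on the counts of other miRNAs, but reads on composites are not part of them.

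The rats served as their own control for the brain. In each rat the mean of the 4 brain regions was set against the mean of that rat's other tissues, and the family share of the library was higher in the brain in 10 of 10 rats (5.37% ± 0.644 against 2.15% ± 0.174, SD over rats). Without the 10 libraries it was higher in 10 of 10 rats as well (5.62% ± 0.372 against 2.09% ± 0.0944). This is a description of a sum over the members and was not tested.

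The members differed widely in amount. Over all counts of the family, let-7f made up 30.8%, let-7c 17.8%, let-7a 13.8%, let-7i 13.3%, let-7g 12.8%, let-7b 5.06%, let-7d 3.25%, let-7e 1.91% and miR-98 1.24%. In 204 libraries let-7f was the most counted member, while let-7c was first in 8 and let-7i in 3. At the other end miR-98 was last in 180 libraries and let-7e in 34. All 10 liver libraries had let-7f first, whereas of the 10 dorsal root ganglion libraries 5 had let-7c first.

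**Figure D2:**
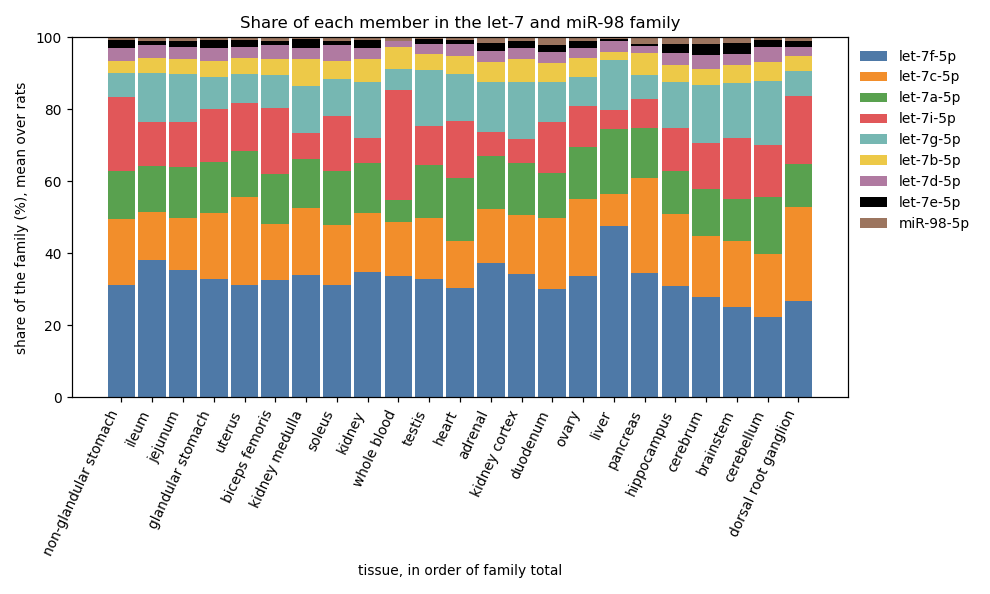
Share of each of 9 members in the family counts (y axis, percent, mean over rats) in 23 tissues, in the order of the family total (x axis), as stacked bars. The bar of the liver holds the largest part of let-7f (47.6%), that of whole blood the largest part of let-7i (30.5%), and those of the pancreas and the dorsal root ganglion the largest parts of let-7c (26.1% each).

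The member let-7f was lowest in the cerebellum with 22.3% ± 0.785 of the family and highest in the liver with 47.6% ± 2.92 (SD, n = 10 each). Its liver libraries ran from 43.8% through a median of 47.7% to 52.9%. All 10 lay above the highest of the other 205 libraries, which was an ileum library with 43.6%. The next tissue was the ileum with 38.0% ± 2.19, and the brainstem at 25.0% ± 1.86 was next to the cerebellum at the low end. Per rat, the share of let-7f was lower in the brain than in the other tissues in 10 of 10 rats, with 26.5% ± 1.68 against 34.4% ± 1.06. The share of its cluster partner let-7a was highest in the liver (18.1% ± 0.920) and the heart (17.6% ± 2.17), which did not differ beyond their spread. The heart mean includes 12.0% in rat 3, a library of the 2 flow cell lanes named above. In whole blood let-7a had its lowest share (6.03% ± 0.660), unlike let-7f. Whole blood libraries held between 5.08% and 7.18% let-7a and between 30.1% and 36.6% let-7f. For levels on the upper quartile scale, let-7a and let-7f had the highest Spearman correlation of all 36 pairs of members (0.964). This describes 23 tissue means that share libraries, and levels rather than shares.

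In the liver the gain of let-7f was set against low shares of several other members. The liver had the lowest share of let-7b (2.10% ± 0.426), of let-7c (8.78% ± 1.50), of let-7i (5.37% ± 0.514) and of miR-98 (0.398% ± 0.0329, SD, n = 10 each). For let-7b, let-7c and miR-98 all 10 liver libraries lay below all 205 others. The liver libraries ran from 1.53% to 2.94% for let-7b against at least 2.97% elsewhere, from 6.86% to 10.98% for let-7c against at least 11.4%, and from 0.349% to 0.446% for miR-98 against at least 0.519%. The margins to the nearest other library were thus narrow for let-7b and let-7c.

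The share of let-7c was highest in the pancreas (26.1% ± 3.65, n = 10), the dorsal root ganglion (26.1% ± 0.172, 2 pools) and the uterus (24.4% ± 2.83, n = 5; 25.5% ± 1.55 over the 4 libraries that fit the label). These 3 tissues did not differ beyond their spread. The pancreas libraries ran from 20.2% through 26.1% to 33.3%, a wide spread that reached the level of the hippocampus (median 20.2%). Its chromosome 7 partner let-7b had a different order, with the highest shares in the kidney medulla (7.39% ± 0.671), the kidney cortex (6.37% ± 0.521) and the kidney (6.35% ± 0.586, n = 10 each). The medulla libraries lay between 6.28% and 8.46% and overlapped those of the cortex, which lay between 5.16% and 6.94%.

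The member let-7i marked whole blood, where it made up 30.5% ± 3.21 of the family (SD, n = 10). The blood libraries ran from 25.5% through a median of 30.8% to 36.6%, and in 2 of them let-7i exceeded let-7f. The next tissues were the non-glandular stomach with 20.5% ± 1.48, the dorsal root ganglion with 18.95% ± 0.388 and the biceps femoris with 18.3% ± 1.62. The ranges of blood and of the non-glandular stomach (17.5% to 22.3%) did not overlap. A single library labelled duodenum (rat 7), which went against its label, had 32.9%. After the liver, the lowest shares of let-7i were found in the kidney cortex (6.44% ± 0.572), the kidney (6.82% ± 0.631) and the adrenal (6.84% ± 1.18, or 6.50% ± 0.459 without the library of rat 8).

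The member let-7e had the widest range, as it was nearly missing from whole blood. It made up 0.0204% ± 0.00991 of the family in blood (SD, n = 10), with libraries from 0.00738% through 0.0206% to 0.0394%. The other 205 libraries started at 0.510%, so the groups did not overlap. The liver came next with 0.595% ± 0.0688, then the pancreas with 0.683% ± 0.0535, and the highest were the brainstem with 2.96% ± 0.434 and the cerebrum with 3.30% ± 0.364, which was 162-fold the blood share. With composite counts split over their members the blood share was 0.0402% and that of the cerebrum 3.42%, or 85.0-fold. Without the libraries that went against their label the hippocampus stood beside them with 2.93% ± 0.118 (n = 7). Per rat the brain share was 2.68% ± 0.227 and that of the other tissues 1.52% ± 0.0646, higher in the brain in 10 of 10 rats.

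Because let-7e differs from the abundant let-7a only by U9G, its blood counts were set against the rate at which other bases were read at that position. A blood library held between 7 and 70 counts of the name let-7e-5p. In the sequence table the whole blood libraries together held 48900 reads of the 22 bases of let-7a and 168 of the 22 bases of let-7e, or 34.4 for every 10000. Reads with A or C at position 9, which belong to no member, numbered 12 and 11, or 2.45 and 2.25 for every 10000. Reads with the G of let-7e were thus more frequent than both. At other positions a base change could be as frequent, since over all libraries A19C, which makes no member, was found in 39.8 for every 10000 reads of let-7a. In the other tissues the same ratio ran from 311 in the liver to 2181 in the brainstem.

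**Figure D3:**
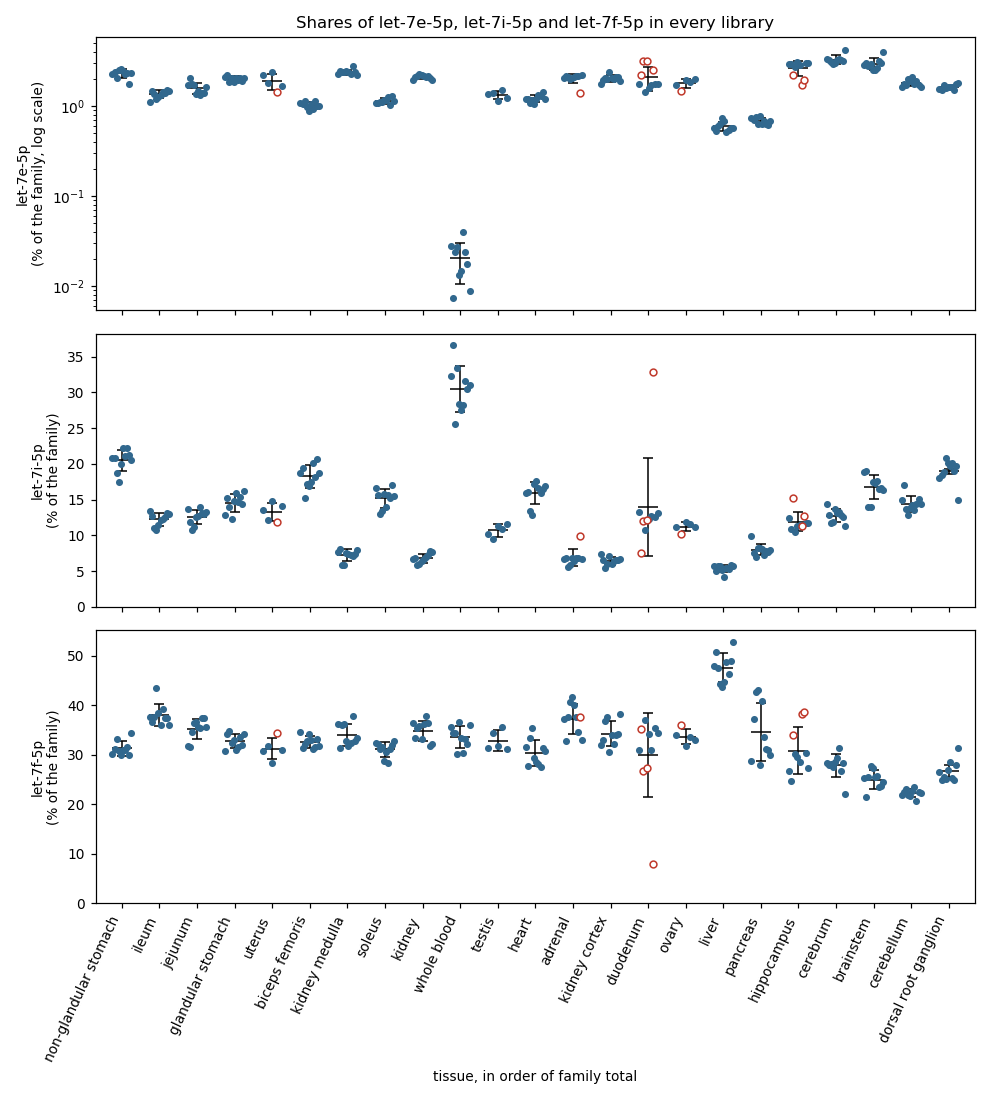
Share of let-7e (upper panel, log scale), let-7i (middle) and let-7f (lower) in the family counts (y axes, percent) of every library in 23 tissues (x axis, in the order of the family total). Points are libraries, bars are means over rats and open red circles are libraries that went against their label. The whole blood libraries stand below 0.0394% for let-7e and above 25.5% for let-7i, and the liver libraries above 43.8% for let-7f.

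The member let-7g was lowest in whole blood (5.97% ± 0.557), the non-glandular stomach (6.60% ± 0.659), the pancreas (6.75% ± 0.303, n = 10 each) and the dorsal root ganglion (7.04% ± 0.146, 2 pools). Neighbours in this order did not differ beyond their spread. It was highest in the cerebellum (17.8% ± 0.654) and the cerebrum (16.0% ± 0.755), and the cerebellum libraries lay between 16.6% and 19.03%. In the brain its share was higher than in the other tissues in 10 of 10 rats (15.5% ± 0.860 against 11.4% ± 0.524). By contrast let-7i, which has the same G12U and U18C, had the lowest Spearman correlation with let-7g among all pairs of members (0.146 over 23 tissue means).

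Of the less counted members, let-7d ranged from 1.81% ± 0.531 in whole blood and 1.86% ± 0.180 in the pancreas to 4.12% ± 0.267 in the cerebellum and 4.45% ± 0.454 in the soleus (SD, n = 10 each). Its share was higher in the brain than elsewhere in 10 of 10 rats (3.61% ± 0.282 against 3.18% ± 0.134). miR-98 was highest under the duodenum label (2.03% ± 1.14, or 1.56% ± 0.302 over the 6 libraries that fit it) and in the pancreas (1.87% ± 0.538), the cerebrum (1.77% ± 0.123) and the hippocampus (1.75% ± 0.506, or 2.01% ± 0.104 over 7 libraries). Its brain share was also higher in 10 of 10 rats (1.52% ± 0.159 against 1.03% ± 0.0919). For let-7a the brain share was higher in 1 rat, for let-7b in 3, and for let-7c and let-7i in 9 of 10. Without the libraries that went against their label these counts were 1 for let-7a, 4 for let-7b and 10 for both let-7c and let-7i, and those of the other members were the same.

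The composites were counted apart. All 51 together held 355564 counts, equal to 1.22% of the single names, and 32 of them named members alone while 38 had fewer than 1000 counts. Only let-7a-5p;let-7c-5p, with 131048 counts, reached 1% of the family in any tissue (1.83% in the testis). The composite let-7a-5p;let-7e-5p held 61065 counts, most in the cerebrum with 0.354% of the family.

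Each member was next compared between tissues with edgeR, as 1 tissue against the mean of the other 22, on levels scaled to the upper quartile of the names of a library. Of the pairs made of 9 members and 23 tissues, 56 were higher and 71 lower at a Benjamini-Hochberg adjusted p under 0.05, where over all names 23.4% of pairs were higher and 11.3% lower. The scaling matters for a family of highly counted names. It was varied by edgeR with upper quartile factors, edgeR with TMM factors, and DESeq2. These 3 are called scalings here, although DESeq2 also has its own estimate of the spread and its own test. Under all 3, 85 of the 127 calls were made in the same direction, 33 higher and 52 lower, and 21 changed sign under at least 1 of them. The median fold change of all names moved with TMM by between -1.20 on the log2 scale (whole blood) and 0.72 (brainstem), and with DESeq2 by between -0.98 (liver) and 0.97 (testis).

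In the testis, the ileum and the jejunum all 9 members fell, under each of these scalings, where 16.8% of all names were lower in the testis, 12.2% in the ileum and 13.1% in the jejunum. In the testis the log2 fold change of miR-98 was -2.62 (SE 0.282, edgeR adjusted p = 5.51e-16), that of let-7d was -2.11 (SE 0.233, adjusted p = 2.18e-15) and that of let-7g was -1.38 (SE 0.214, adjusted p = 6.33e-09). With DESeq2 these became -1.70, -1.16 and -0.42. In the ileum let-7c fell by 1.38 on the log2 scale (SE 0.161, edgeR adjusted p = 6.36e-14), and in the jejunum it fell by 0.99 (SE 0.155, adjusted p = 1.67e-08). Under the duodenum label, the other part of the small intestine sampled, no member was called lower under each scaling. For let-7c the value was -0.16 with the upper quartile, 0.10 with TMM and 0.38 with DESeq2. These values include the libraries that went against the duodenum label, so they do not show how the duodenum alone compares with the ileum and the jejunum. Over the 6 libraries that fit the label the family share was 1.61% ± 0.151.

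In whole blood 8 of 9 members rose, where 36.1% of all names did, and let-7e fell. The rise was called under each scaling for 7 of them, the exception being let-7a with 1.54 by the upper quartile and 0.21 by TMM, not past the threshold. The log2 fold change was 4.13 for let-7i (SE 0.110, edgeR adjusted p = 2.15e-87), 3.09 for let-7b (SE 0.0999, adjusted p = 2.34e-74), 2.80 for let-7f (SE 0.110, adjusted p = 8.84e-62) and 2.58 for let-7c (SE 0.108, adjusted p = 1.62e-57). For let-7e it was -3.62 (SE 0.202, edgeR adjusted p = 1.80e-41), and with TMM and DESeq2 it was -4.95 and -4.38. The rise of let-7i was 2.78 with TMM and 3.35 with DESeq2, so it depended on the scaling in size but not in direction. The part of the composite that took a median of 85.1% of the blood libraries in these levels was not tested.

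In the cerebellum 7 members rose, where 23.4% of all names did, among them let-7g with a log2 fold change of 1.22 (SE 0.117, edgeR adjusted p = 2.46e-19) and let-7d with 0.94 (SE 0.123, adjusted p = 6.11e-12). For let-7f the value was -0.04 (SE 0.146), not past the threshold, and it was positive with TMM (0.33) and DESeq2 (0.35). In the liver 4 members rose, where 30.8% of all names did, and 4 fell, where 9.38% did. The log2 fold changes were 1.38 for let-7f (SE 0.126, edgeR adjusted p = 1.10e-20) and 1.20 for let-7a (SE 0.131, adjusted p = 9.89e-16), and on the other side -0.65 for miR-98 (SE 0.167, adjusted p = 0.000557), -0.54 for let-7e, -0.53 for let-7b and -0.45 for let-7i. The 4 lower members were lower under each scaling, whereas of the 4 higher members let-7f alone was called higher under each. With DESeq2 the values of let-7a (0.18) and let-7g (0.07) did not pass the threshold, and let-7d, at 0.76 with the upper quartile, was 0.14 with TMM, not past the threshold, and -0.26 with DESeq2, called lower.

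Members also rose in the pancreas and the dorsal root ganglion. In the pancreas the log2 fold change of miR-98 was 1.96 (SE 0.128, edgeR adjusted p = 3.42e-33) and that of let-7c was 1.65 (SE 0.118, adjusted p = 4.68e-29), while that of let-7e was -0.04 (SE 0.146) and did not pass the threshold. In the dorsal root ganglion let-7c and let-7i had values of 1.07 (SE 0.270, edgeR adjusted p = 0.00120) and 1.09 (SE 0.288, adjusted p = 0.00202). Without the female pool neither passed (adjusted p = 0.388 and 0.474), and without the male pool let-7c did not (adjusted p = 0.0564), while let-7i passed (adjusted p = 0.0434). Under the duodenum label miR-98 rose by 0.70 (SE 0.146, edgeR adjusted p = 1.76e-05), but without the 4 libraries that went against the label the value was 0.27 (adjusted p = 0.315) and without rat 7 alone 0.31 (adjusted p = 0.107).

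**Figure D4:**
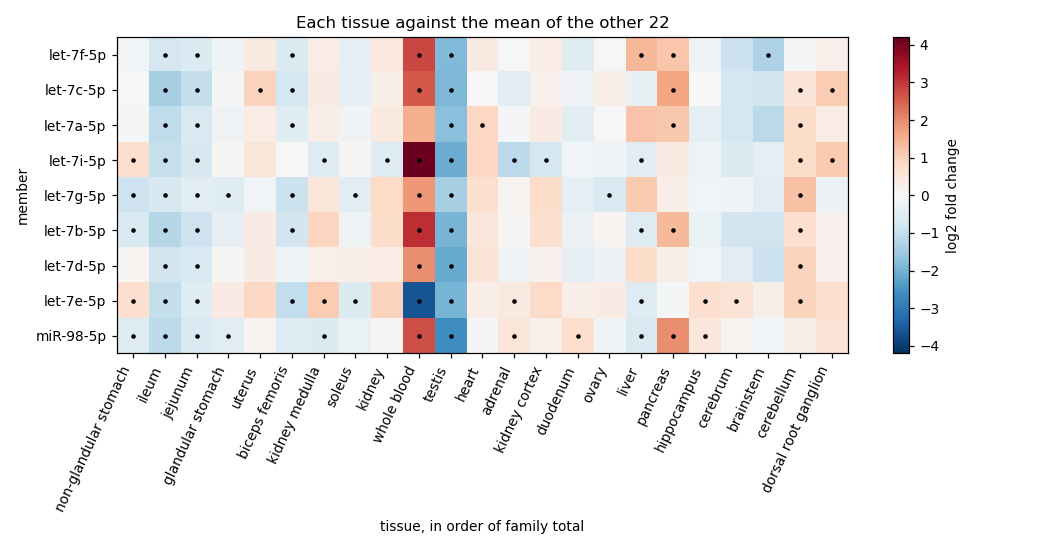
Log2 fold change (colour) of 9 members (y axis) in each of 23 tissues against the mean of the other 22 (x axis, in the order of the family total), from edgeR with upper quartile scaling. Black dots mark the 85 pairs called in the same direction by edgeR with upper quartile factors, edgeR with TMM factors and DESeq2. The columns of the testis, the ileum and the jejunum are negative for all 9 members, and let-7e in whole blood is the lowest value at -3.62.

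In the kidney and the adrenal let-7i was lower, as it was under each scaling in the testis (-2.08), the ileum (-0.98), the jejunum (-0.67) and the liver. The log2 fold change of let-7i was -0.72 in the kidney cortex (SE 0.161, edgeR adjusted p = 9.33e-05), -0.54 in the kidney (SE 0.159, adjusted p = 0.00349), -0.55 in the kidney medulla (SE 0.159, adjusted p = 0.00320) and -1.10 in the adrenal (SE 0.167, adjusted p = 4.28e-09). In the non-glandular stomach let-7i rose by 0.73 (SE 0.139, edgeR adjusted p = 4.43e-06) while let-7g fell by 0.88 (SE 0.146, adjusted p = 1.17e-07). In the uterus let-7c rose by 0.96 (SE 0.176, edgeR adjusted p = 2.37e-06). All of these kept their direction with TMM and DESeq2.

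For the brain as an organ, the mean of the 4 brain regions was set against the mean of the 18 tissues that are neither brain nor ganglion. let-7e was higher by 0.77 on the log2 scale (SE 0.0753, edgeR adjusted p = 3.78e-19), and also with TMM (1.45) and DESeq2 (1.60). Of the other members miR-98 was higher (0.25, SE 0.0841, edgeR adjusted p = 0.00610), and let-7a (-0.41), let-7b (-0.34), let-7c (-0.23) and let-7f (-0.71) were lower. The counts of 2 higher and 4 lower stand beside 25.1% higher and 34.5% lower among all names. With TMM 8 members were higher and none lower, and with DESeq2 9 and none. The median of all names moved by 0.58 with TMM and by 0.61 with DESeq2, and the part of this in the changed calls was not tested. With the upper quartile that median was -0.82, below the value of every member. The direction for let-7a, let-7b, let-7c and let-7f thus depended on the scaling, while let-7e was higher under each. Without the libraries that went against their label 2 members were higher and 6 lower, with let-7d (-0.20) and let-7i (-0.17) now past the threshold.

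Between the sexes the family differed little. Of 171 pairs of a member and a tissue in the 19 tissues with both sexes, 1 passed the threshold, where over all names 1.63% did. This was let-7d in whole blood, at 0.87 lower in females on the log2 scale (female minus male -0.87, SE 0.187, edgeR adjusted p = 0.000433). Its share of the family was 1.30%, 1.87%, 1.39%, 1.38% and 1.05% in the females (rats 7 to 11) and 2.36%, 1.88%, 1.81%, 2.45% and 2.60% in the males (rats 2 to 6). The groups overlapped by 1 female and 1 male. At an unadjusted p under 0.05 there were 5 pairs, and DESeq2 called 2 pairs. Without rat 7 there were 4 pairs, without rat 8 there were 3, and without rat 11 or without the libraries of the 2 lanes there were 2. Within each of the second flow cells alone, and with no filter on low counts, let-7d in blood did not pass (adjusted p = 0.357, 0.302 and 0.903). For no member did the edgeR test across the 18 tissue by sex terms pass (0 of 9, where 14.4% of all names did, and 0 at an unadjusted p under 0.05). With TMM it passed for 1 and with DESeq2 for none.

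The miRNAs of the miR-99/100 and miR-125 families, of which several lie near members as described above, were set beside them. All 5, miR-99a-5p, miR-99b-5p, miR-100-5p, miR-125a-5p and miR-125b-5p, had their lowest mean in whole blood, at between 3.95 and 30.8 CPM (counts in 1000000 counts of the library), while their medians over tissues lay between 557 and 5429 CPM. Blood was also the tissue in which let-7e was lowest, at 4.73 ± 2.87 CPM (SD, n = 10). A minimum in blood was not particular to these names. Of the marker miRNAs, miR-192-5p, miR-194-5p, miR-215, miR-205, miR-143-3p and miR-145-5p were lowest there as well, and the others were lowest in other tissues. The composite miR-3107-5p;miR-486-5p took a median of 85.1% of the blood libraries, and its part in these CPM values was not tested. The single names most like let-7e over the 23 tissue means were miR-99b-3p (Spearman 0.917) and miR-99b-5p (0.894), and miR-125a-5p had 0.806. The other members with neighbours among these 5 did not share the blood minimum, as let-7c held 3450 ± 1206 CPM and let-7a 1376 ± 451 CPM in blood, but each of them has a copy elsewhere in the genome and the copies cannot be told apart by the mature sequence. The correlations describe tissues that share libraries and scaling.

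For the other members the most similar single names were let-7i-3p for let-7i (0.913), miR-320-3p for let-7c (0.856) and let-7b (0.699), miR-26a-5p for let-7d (0.833) and let-7a (0.786), miR-26b-5p for let-7f (0.810), miR-185-5p for let-7g (0.725) and miR-877 for miR-98 (0.706). They were the highest of 530 names that reached a mean of 10 CPM in at least 1 tissue. Of these only let-7i-3p comes from the same hairpin as its member.

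The opposite arms of the hairpins, the 3p strands, were far less counted. Among 11 such names let-7d-3p held 286087 counts, 23.1% of both arms of let-7d, and its share ran from 10.7% in the dorsal root ganglion to 30.8% in the heart. miR-98-3p held 4.71% of both arms, let-7b-3p 3.94%, let-7e-3p 2.89%, let-7i-3p 0.434% and the let-7f arms 0.316%. The 3p share was lowest in whole blood for let-7b (0.147%), let-7f (0.0167%), let-7i (0.0430%) and miR-98 (0.213%). For let-7a and let-7c no share is given, because 65519 counts lay on the composite let-7a-1-3p;let-7c-2-3p, and let-7g-3p was found only within composites.

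The isomiRs, the sequences of 1 miRNA that differ at their ends, were examined in 1 run of each library. For all 9 members the most counted sequence was the mature sequence above, at between 47.9% (let-7b) and 67.4% (miR-98) of the member's reads. Among reads that begin with the whole mature sequence, the share with exactly 1 more base was computed for each base, whatever name the table gave the read. In the hairpin the next base is U for let-7d, let-7g and both copies of let-7a and of let-7c, U in 1 copy of let-7f and G in the other, and G for let-7e, let-7i and miR-98. An added U is thus the encoded base for let-7a, let-7c, let-7d and let-7g and can be so for let-7f, but not for let-7e, let-7i and miR-98, and an added A is encoded for none of these 8.

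The liver stood apart by reads with 1 more U, which for 4 of the 6 members named next is the encoded base. The share was 21.8% ± 1.10 for let-7a, 20.5% ± 1.03 for let-7d, 17.1% ± 0.977 for let-7c, 14.9% ± 1.06 for let-7f, 13.7% ± 0.910 for let-7g and 11.7% ± 2.21 for miR-98 (SD, n = 10 each). For these 6 members every liver library lay above all other libraries, for example at 20.2% to 23.5% against at most 13.3% for let-7a and at 13.3% to 16.8% against at most 7.91% for let-7f. The margin was narrow for miR-98, with liver libraries from 9.28% and others up to 8.43%. The heart was next for all 6, with 11.7% for let-7a and 6.70% for let-7f. The added U of miRNAs outside the family was not examined, so whether the liver stands apart for miRNAs in general was not tested.

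For the other 3 members the liver libraries did not all lie above the other libraries. For let-7b the liver (30.1% ± 1.59) and the cerebellum (30.0% ± 1.19) did not differ beyond their spread. For let-7e and let-7i the heart was highest, with 21.2% ± 1.96 and 17.7% ± 1.33, ahead of the liver with 19.3% ± 2.59 and 15.6% ± 0.902. An added A was most frequent on let-7i, with 22.6% ± 2.31 in the liver and 21.9% ± 2.33 in the ileum, against 8.59% ± 1.09 in whole blood. Whole blood had the lowest share of added U for let-7a (4.68% ± 0.578), let-7b (8.04% ± 1.10), let-7c (4.45% ± 0.375), let-7d (4.65% ± 0.688), let-7g (2.23% ± 0.174) and let-7i (6.40% ± 0.883). Reads of let-7e with an added U carry the composite name let-7a-5p;let-7e-5p in the table, so they are absent from the single name.

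**Figure D5:**
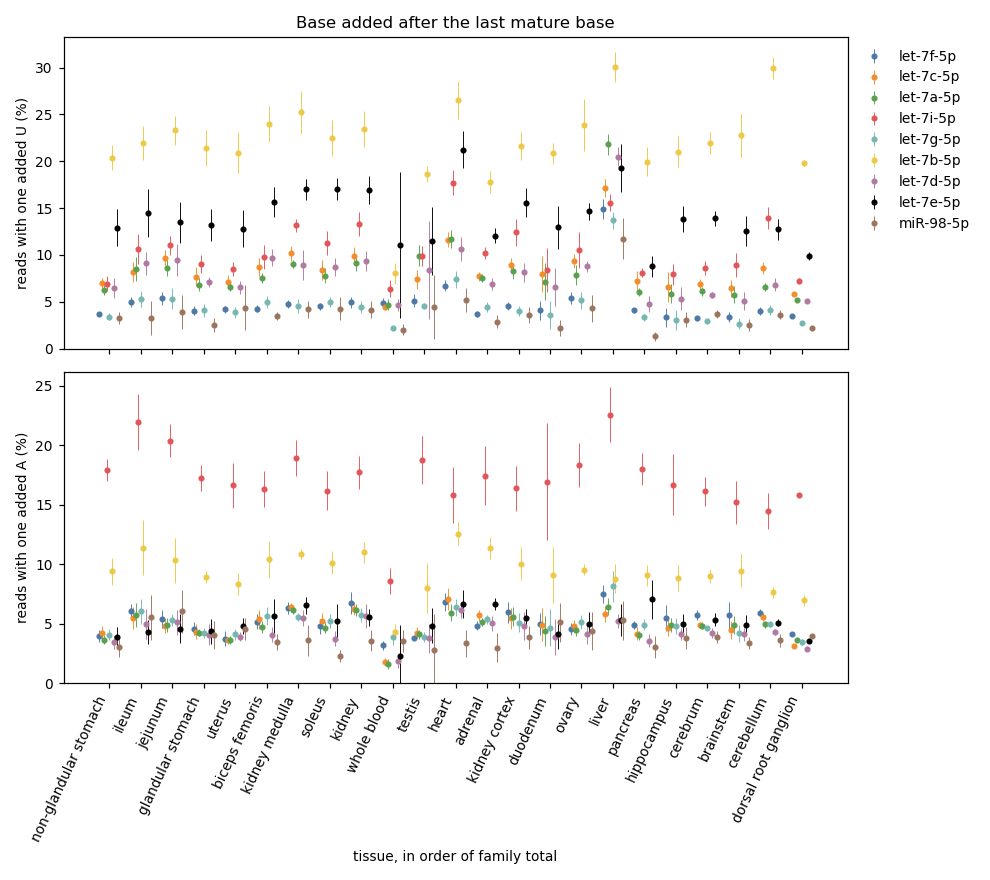
Share of reads with exactly 1 added U (upper panel) or A (lower panel) among reads that begin with the whole mature sequence (y axes, percent), for 9 members in 23 tissues (x axis, in the order of the family total). Points are means over rats and bars are SDs. The liver has the highest mean of U for let-7a (21.8%), let-7b, let-7c, let-7d, let-7f, let-7g and miR-98, for let-7b within the spread of the cerebellum. The highest A is that of let-7i, with 22.6% in the liver.

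The reads of 2 flow cell lanes differed from the rest in ways that touch these counts. In lane 8 of flow cell C2BUMACXX, with 14 libraries of 14 tissues, between 54.3% and 57.7% of the family reads carried an extra base before the mature start, against 0.0419% to 0.218% in the other 201 libraries. That base was U in 45.4% of such reads, G in 38.5%, A in 12.6% and C in 3.50%. Composites equalled a median of 12.1% of the family in this run of these libraries and 0.797% in their first run. Lane 4 of flow cell D2C4RACXX, with 13 libraries, had reads with a changed base at position 10 (A10G). They numbered 1066 for every 10000 unchanged family reads of full length, against at most 27.1 in any other lane. Both sets spread over tissues, but the adrenal, the hippocampus and whole blood had no library in either lane. Without the 27 libraries 57 pairs of a member and a tissue were higher and 72 lower.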

How the data were processed

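Small RNA was sequenced by the authors from 23 rat tissues. They removed adaptors and short reads with cutadapt 1.4.1, aligned the reads with miRDeep2 to known and predicted miRNA precursors, and deposited counts per miRNA name and per isomiR sequence for each run, without normalization. These deposited counts are the only unit used here. The files carry no molecular identifiers, so reads are not independent molecules.

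The 458 runs were summed to 215 libraries by the labels of tissue, rat and sex, and 14 runs that repeat a flow cell lane entered only an alternative. For isomiRs the run on the second flow cell was used, and 243 other columns of that table were not used. A family total is the summed count of the single names divided by the library total, and a member share is its count divided by that sum. Both are given as mean ± SD over rats, without a test.

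Under R 4.3.3, edgeR 4.0.16 tested the levels (upper quartile factors, filterByExpr on tissue, quasi-likelihood F test, Benjamini-Hochberg adjustment over all names within a contrast, threshold 0.05). The fit of tissues held 207 samples, with the technical libraries of a ganglion pool summed, and 1641 names, and the fit of the sexes held 190 samples and 984 names. Alternatives were TMM factors, DESeq2 1.42.0, no filter (with factors still from the filtered names, as the third quartile of all names was 0), single flow cells, all runs, composites split over their members, libraries against their label left out, each rat left out, and, chosen after the data were seen, the libraries of 2 lanes left out. The fits were also run on simulated counts in which all tissues shared the same profile, with names changed in the liver only. Such counts lack the differences in composition between these tissues, so they cannot decide between the scalings. Other values used Python 3.11.15, pandas 2.3.3 and numpy 2.4.6.

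The same 10 rats gave all tissues but the dorsal root ganglion, so the rat number in the labels pairs samples. After removal of tissue means, tissues of the same rat correlated by 0.0139 on average (1808 pairs) and those of different rats by -0.000748. A replicate block by rat, without the ganglion, was tried. Each rat has 1 sex, so that the comparison of the sexes within a tissue could take no block. The test of the tissue by sex terms compares tissues of the same rats and could have taken a block, but it was run without it.

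The single names that the rule selects are named in the text, with 3p arms, miRNAs of the miR-99/100 and miR-125 families, the composites that reach 1% of the family in a tissue, and for each member the most similar single names. Pairs of a member and a tissue whose fold changes are given, and the shares of members, were chosen after their values were seen. The members and lists were chosen with earlier results of these data known. A p-value measures the spread between these rats, and intervals between tissues rest on the same rats.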

Additional observations from a re-analysis of the deposited data

Results flagged for a closer look

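In tissues with 4 to 10 rats, the highest or lowest library was looked at again where its gap to the next was large against the range of its group (Dixon's test at the 95% level). This held in 42 of 220 groups, where chance gives about 1 in 20. Of the 42, 13 were libraries that went against their label, 19 were libraries of the 2 flow cell lanes, and 10 were neither.

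The library labelled duodenum of rat 7 was flagged for 6 members. Of its family counts 4.01% were let-7a, 6.67% let-7b, 32.5% let-7c, 7.91% let-7f, 32.9% let-7i and 5.15% miR-98, so that it was the only library outside whole blood with let-7i first. The adrenal library of rat 8 had 17.9% let-7c, 1.405% let-7e, 9.57% let-7g and 9.97% let-7i. The hippocampus library of rat 2 had 15.2% let-7i, the ovary library of rat 11 had 1.87% miR-98 and the uterus library of rat 8 had 1.26% miR-98.

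In lane 8 of flow cell C2BUMACXX or lane 4 of flow cell D2C4RACXX, low shares of let-7a were flagged in the biceps femoris of rat 10 (10.1%), the glandular stomach of rat 4 (9.13%), the heart of rat 3 (12.0%), the ileum of rat 3 (9.09%), the kidney of rat 7 (10.6%), the kidney medulla of rat 7 (10.02%), the soleus of rat 8 (11.02%), the testis of rat 5 (10.1%) and the uterus of rat 10 (9.57%). The cerebrum library of rat 9 had 24.3% let-7c, 5.24% let-7d, 4.24% let-7e and 22.2% let-7f. The brainstem library of rat 11 had a family total of 8.07% of the library and 10.7% let-7g. The others were the heart of rat 3 with 4.27% let-7d, the kidney medulla of rat 7 with 2.76% let-7e, the ileum of rat 3 with 43.6% let-7f and the liver of rat 5 with 4.13% let-7i.

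The remaining 10 were the let-7b shares of the biceps femoris of rat 2 (5.54%), the cerebellum of rat 3 (6.17%) and the kidney cortex of rat 9 (5.16%), the let-7d share of the glandular stomach of rat 3 (4.77%), the let-7e shares of the brainstem of rat 9 (4.03%) and the kidney cortex of rat 4 (2.39%), the let-7g shares of the ileum of rat 9 (11.9%) and the soleus of rat 5 (8.24%), the let-7i share of the pancreas of rat 10 (9.98%) and the miR-98 share of the glandular stomach of rat 10 (1.36%). What sets these libraries apart was not tested.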

How the results depend on the processing

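Depth limited the testis most, with totals of at most 653651 counts, and let-7e in whole blood, with at most 70 counts in a library. The family total of the cerebellum (7.19%) moved only when the most counted name was left out of the library total (9.25%), and without single rats it lay between 7.06% and 7.35%. Of the pairs of a member and a tissue, 56 were higher and 71 lower. With no filter 40 were lower and 39 higher. Without single rats 53 to 58 were higher and 67 to 73 lower, and with the replicate block 57 and 74 of 198. The block, given once here, moved no count of calls by over 1.5 times. With it 3 members were higher in the brain, with let-7g added. In the brain contrast 2 members were higher and 4 lower. TMM gave 8 and 0, DESeq2 9 and 0, no filter 1 and 2, and 1 was higher on the second flow cells only or within C2BUMACXX. With TMM let-7a became 0.27, let-7b 0.35, let-7c 0.45, let-7d 0.54 and let-7i 0.60, and with DESeq2 they were 0.42, 0.49, 0.59, 0.69 and 0.73, with let-7f at 0.10. For let-7i, which did not pass the threshold, the value was 0.0035 on the first flow cell and 0.028 within D2C4RACXX. Of the other log2 fold changes given, let-7f in the cerebellum (-0.04) became 0.33 with TMM, 0.35 with DESeq2, 0.048 on the first flow cell and 0.020 with the block, and let-7e in the pancreas (-0.04) became 0.066 on the second flow cells, 0.066 within D2C4RACXX, 0.017 without rat 4 or rat 11 (lowest -0.096, without rat 9) and 0.023 with the block, neither being past the threshold in the main comparison. Between the sexes, 1 pair passed. The count was 0 with no filter and within either flow cell, 2 without the libraries of 2 lanes, 2 with DESeq2, and 1 to 4 without single rats. The member tests of a sex difference that varies between tissues (0) gave 1 with TMM and 0 to 1 without single rats (1 without rat 8). The cause of these changes was not tested. A list of chosen pairs of a member and a tissue was followed under all alternatives. In it 740 log2 fold changes kept their direction and side of the threshold, 23 kept their direction only and 9 turned. The list does not hold all pairs given, and lacks let-7d in the liver and let-7c in the duodenum, which turned with DESeq2. Of all 127 calls in the main comparison, 21 changed sign under TMM or DESeq2. Shares of members moved by less than 1 SD in 547 of 554 cases. Exceptions were let-7e in whole blood with composites split (0.0402%) and let-7e in the liver when reads were assigned by their first 18 bases (0.689%).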

Other observations

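Sequences that combine the bases of different members were counted once, as they belong to no known miRNA. The 22 bases with the changes of both let-7e and let-7f had 2343 counts, or 90.8 for every 10000 reads of the less counted of these members. Those of let-7c and let-7e had 1847 counts (71.6 for every 10000), and those of let-7c and let-7f had 3264 (10.8 for every 10000). For comparison, the median over the changes of a single base that make no member, at positions 2 to 20 without position 10, was between 1.89 (let-7d) and 2.41 (let-7a) for every 10000 reads of the member. The highest single change was G12A for let-7e, G19A for let-7b, U12G for let-7i and A11G for miR-98, each to the base of another member at that position. For let-7a, let-7d, let-7f and let-7g it was A19C and for let-7c G19C, a base that no member has there. Their source was not tested.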
